A study of Homo sapiens with 6 samples.

Results

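The genes described here are the ligands, receptors, SMAD proteins, secreted antagonists, feedback inhibitors and ID proteins of the TGF-beta and BMP pathway. They were chosen by name from the protein-coding genes of the count table: BMP or GDF followed by a digit, the TGFB and TGFBR genes, the activin chains, the activin and BMP receptors, SMAD1 to SMAD7 and SMAD9, ID1 to ID4, and SKI, SKIL, BAMBI, NOG, GREM1, FST, PMEPA1 and TGIF1. The names gave 48 genes of the 26748 genes listed, 15520 of them protein-coding. Of these 48 genes, 44 averaged 10 or more normalised counts across all libraries and were tested. GDF3, GDF5, GDF7 and GDF10 lay under that minimum, and BMPR1B, ID3, ID4 and GREM1 were not analysed here.

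The samples were polyA RNA from M14, an established human melanoma cell line, grown in 2 ways. In the 3D culture the cells were not attached and formed melanospheres (3 libraries), and in the 2D culture the same line grew attached to the plate (3 libraries). The study used the 3D cultures to look for cells with stem cell properties. No genetic change, drug or other agent is named for either culture, all 6 libraries come from 1 cell line, and nothing in the labels tells whether each replicate came from its own culture. The p-values therefore refer only to library-to-library spread, some of which may be technical.

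The libraries held between 16567763 and 19954987 reads assigned to genes. Not all replicates were alike. Across genes, log2 values of 3D replicates 1 and 3 had r = 0.987, whereas 3D replicate 2 had r = 0.966 and 0.967 with them. Likewise 2D replicates 1 and 2 had r = 0.984, whereas 2D replicate 3 had r = 0.945 and 0.943 with them. Both libraries were kept in all main values, and values without 1 of them stand beside some of the pathway genes they move. Of 10 melanocyte lineage genes, 4 reached the minimum level. MITF, the lineage's master regulator, had 309, 271 and 285 normalised counts in 3D and 1210, 1295 and 887 in 2D, and PMEL, a melanosome protein, had 1215, 620.4 and 1377 in 3D and 323, 227 and 752 in 2D. DCT, a melanin synthesis enzyme, had 1.86, 0 and 0 in 3D and 53.4, 38.4 and 118 in 2D, and GPR143, a melanosome receptor, had 65, 435 and 57.8 in 3D and 100.1, 75.8 and 31.9 in 2D. MITF (log2 change -1.95, limma adjusted p = 0.00077) and DCT (-5.48, adjusted p = 0.0014) were lower in 3D, and PMEL (1.41, adjusted p = 0.053) and GPR143 (0.91, adjusted p = 0.4) did not pass, although PMEL was higher in 3D without 2D replicate 3 (1.90, adjusted p = 0.0022) or without 3D replicate 2 (1.76, adjusted p = 0.044). SOX10, TYR, MLANA, TYRP1, S100B and PAX3, which also define the lineage, had at most 14.9 normalised counts in any 3D library and at most 37 in any 2D library. KRT8, an epithelial keratin, was abundant, between 21790 and 28680 normalised counts in 3D and between 13270 and 44350 in 2D. The epithelial adhesion genes EPCAM, with 200.4, 132 and 184 normalised counts in 3D and 464, 446 and 359.8 in 2D (log2 change -1.31, SE 0.24, limma adjusted p = 0.0074), and CDH1, with 2.78, 5.82 and 8.26 in 3D and 84.8, 76.9 and 115 in 2D (log2 change -3.89, SE 0.45, limma adjusted p = 0.0012), were lower in 3D. PTPRC, which defines leukocytes, had at most 1.94 normalised counts in 3D and 4.27 in 2D. The endothelial gene PECAM1 was higher in 3D, with 94.6, 154 and 101 normalised counts against 0, 0 and 9.25 in 2D (limma adjusted p = 0.004). CDH5 had 19.5, 21.3 and 21.7 in 3D and 25.7, 13.9 and 268 in 2D (log2 change -1.12, limma adjusted p = 0.4). VWF had 26, 11.6 and 15.5 in 3D and 29.5, 23.5 and 40.1 in 2D (log2 change -0.82, limma adjusted p = 0.2). KDR was at or near 0 in both cultures. Over the 4 endothelial genes the summed level ran between 138 and 187 in 3D and between 39.5 and 318 in 2D. The highest 2D sum was in replicate 3, where CDH5 was high. The part of endothelial cells in the results was not tested. The melanoma label thus rested on few of its markers in both cultures.

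TGF-beta, activin and BMP ligands are secreted dimers that bring together type I and type II receptor kinases. Receptors for TGF-beta and activin phosphorylate SMAD2 and SMAD3, BMP receptors phosphorylate SMAD1, SMAD5 and SMAD9, and both sets enter the nucleus with SMAD4. Secreted antagonists hold ligands away from receptors, and SMAD6, SMAD7, SKIL, BAMBI and PMEPA1 are themselves induced by the pathway and restrain it. In melanoma the pathway is known both for slowing growth and for accompanying invasive, dedifferentiated states.

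The comparison of 3D with 2D asked which of these transcripts differed between melanospheres and attached cells. TGFB1, the most abundant TGF-beta ligand transcript, rose in 3D together with TGFB3, the BMP antagonist NOG and the protease BMP1. Lower in 3D were TGFB2, the activin chains INHBA and INHBB, the ligands BMP2 and GDF15, the activin antagonist FST, the co-receptor TGFBR3, SMAD2, SMAD3, SMAD4 and SMAD9, the corepressor TGIF1, and the ID proteins ID1 and ID2. In all, 18 of the 44 tested genes (40.9%) passed an adjusted p of 0.05 in limma's moderated test, against 24.1% of the 15598 genes tested. Of the 44, 4 (9.09%) were higher in 3D, where 12.5% of all tested genes were higher, and 14 (31.8%) were lower, where 11.6% of all tested genes were lower. Among tested protein-coding genes the shares were 24.5% past the threshold, 11.0% higher and 13.5% lower. The median log2 change, 3D minus 2D on the scale of log2(normalised count + 1), was -0.47 over the 44 genes and -0.02 over all genes tested. In bulk RNA, fewer cells of a type and less RNA per cell cannot be told apart. With library totals made equal in place of the authors' scaling, 6 genes were higher and 12 lower, and the median of all genes moved to 0.11, with 2391 of all genes higher and 1253 lower (1950 higher and 1816 lower under the authors' scaling).

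Counted without a test, 24 of the 44 genes (54.5%) had 3D and 2D libraries that did not overlap, against 43.1% of all genes tested. Of these, 7 were higher in every 3D library than in any 2D library (20.5% of all genes were) and 17 were lower (22.6% of all genes were). The 7 were BMP1, NOG, TGFB1 and TGFB3 with BMP6, GDF11 and PMEPA1, and the 17 added BMP8B, BMPR1A and SKI to the 14 lower genes. The counts depended on single libraries. Leaving out 3D replicate 3 left 2 higher and 9 lower, and leaving out 2D replicate 3 gave 7 higher and 19 lower. Leaving out 3D replicate 1 left 10 lower genes, and leaving out either of 2D replicates 1 and 2 left 9. Over all genes, 3766 passed the threshold with all libraries, 1190 with 3D replicate 3 omitted and 7111 with 2D replicate 3 omitted (1307, 1549 and 1793 with 3D replicate 1, 2D replicate 1 and 2D replicate 2 omitted). Without both 3D replicate 2 and 2D replicate 3, a setting chosen after seeing the data, 8 of the 44 genes were higher and 25 lower, beside 9041 genes past the threshold in all.

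**Figure D1:**
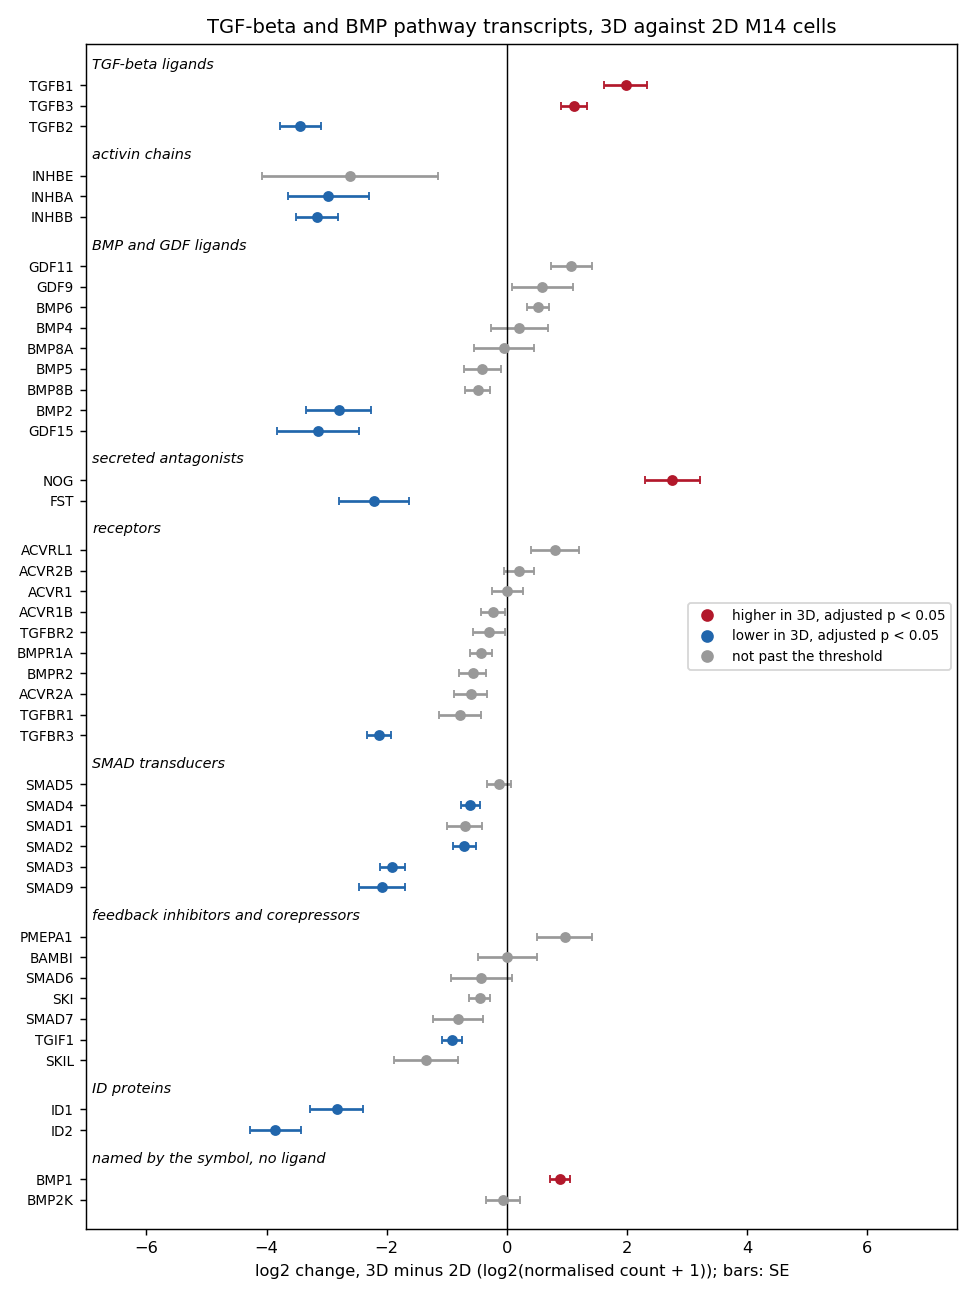
Log2 change (3D minus 2D, log2(normalised count + 1), points) with its SE (bars) for the 44 tested genes, by role and coloured by whether the adjusted p passed 0.05. TGFB1, TGFB3, NOG and BMP1 lie right of 0 in colour, and 14 coloured genes lie left of it.

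The TGF-beta ligands split. All 3 passed the threshold, with TGFB1 and TGFB3 higher in 3D and TGFB2 lower. Their promoter windows are shown because these closely related ligands moved in opposite directions. Each is 300 bases of RefSeq sequence (GRCh38.p14) read 5′ to 3′ on the gene's strand, from 250 bases before to 50 bases after the annotated start. Capitals mark CAGAC or its reverse complement GTCTG, the SMAD-binding element, and GGCGCC, a palindromic GC-rich sequence bound by SMAD proteins at BMP-responsive genes.
TGFB1 (chr19:41353873-41354172, minus strand): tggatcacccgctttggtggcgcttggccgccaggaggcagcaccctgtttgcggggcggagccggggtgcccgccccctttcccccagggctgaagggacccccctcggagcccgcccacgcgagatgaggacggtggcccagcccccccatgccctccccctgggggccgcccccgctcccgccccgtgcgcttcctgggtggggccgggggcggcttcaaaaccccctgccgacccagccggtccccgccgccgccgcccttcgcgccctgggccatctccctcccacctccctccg
TGFB2 (chr1:218345086-218345385, plus strand): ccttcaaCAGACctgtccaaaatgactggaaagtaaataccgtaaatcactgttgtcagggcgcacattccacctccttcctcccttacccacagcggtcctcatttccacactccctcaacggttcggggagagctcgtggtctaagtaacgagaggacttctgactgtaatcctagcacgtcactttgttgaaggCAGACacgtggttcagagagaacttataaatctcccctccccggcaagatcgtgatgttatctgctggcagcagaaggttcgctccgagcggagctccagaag
TGFB3 (chr14:75982962-75983261, minus strand): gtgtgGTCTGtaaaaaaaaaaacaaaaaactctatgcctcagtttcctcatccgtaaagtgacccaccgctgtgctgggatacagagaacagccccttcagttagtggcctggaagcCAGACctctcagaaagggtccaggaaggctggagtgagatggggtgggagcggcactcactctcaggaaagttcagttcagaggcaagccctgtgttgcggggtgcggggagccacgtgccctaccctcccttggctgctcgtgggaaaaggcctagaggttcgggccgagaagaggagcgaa
The TGFB2 and TGFB3 windows each held 2 CAGAC matches and no GGCGCC, and the TGFB1 window held neither. CAGAC on either strand occurred in 45.3% of all 35116 RefSeq windows and GGCGCC in 19.2%. Of the 48 genes, 41 matched a window, of which 19 (46.3%) held CAGAC and 15 (36.6%) held GGCGCC, a sequence found in 25.2% of protein-coding windows. The E-box CANNTG, the site of the bHLH factors that ID proteins withhold from DNA, was in 22 of the 41 windows (53.7%). It was in 68.7% of all windows and in 64.5% of protein-coding windows. Each motif was searched on its own on both strands, so matches of different motifs may overlap. A match describes letters only, and the lack of one says only that these letters are not in this window.

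TGFB1 (ENSG00000105329, chr19:41301587-41353911, minus strand) encodes the ligand that gives the family its name. It had 4498, 5805 and 4909 normalised counts in 3D replicates 1 to 3, against 990.2, 858 and 2466 in 2D replicates 1 to 3. Every 3D library lay above every 2D library, and 2D replicate 3 lay well above the other 2D libraries. The change was 1.98 on the log2 scale (SE 0.36, limma adjusted p = 0.0079), and 2.45 without 2D replicate 3. TGFB3 (ENSG00000119699, chr14:75958099-75982991, minus strand), a ligand known from palate and epithelial development, had 259, 265 and 303 normalised counts in 3D and 131, 112 and 137 in 2D. Its groups did not overlap and its libraries were close within each culture (log2 change 1.12, SE 0.22, limma adjusted p = 0.0094), although the adjusted p was 0.059 without 3D replicate 3. TGFB2 (ENSG00000092969, chr1:218346235-218444619, plus strand), a ligand often made by melanoma cells and the one that needs the co-receptor TGFBR3 most, had 73.3, 32 and 68.1 normalised counts in 3D and 636, 678 and 499 in 2D. All 3D libraries lay far under all 2D libraries (log2 change -3.44, SE 0.34, limma adjusted p = 0.0007), and 3D replicate 2 was the lowest of the 6. TGFB2-OT1, a transcript inside the TGFB2 gene, shares 24.8% of the 75-base windows of TGFB2, so counting there is uncertain.

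Per length, the makeup of the family differed too. TGFB1 had a mean of 299 TPM (transcript abundance per length, scaled to the library) in 3D and 89.8 TPM in 2D, TGFB3 had 10.7 TPM in 3D and 5.21 TPM in 2D, and TGFB2 had 2.15 TPM in 3D and 23.8 TPM in 2D. TGFB2 therefore ranked below TGFB3 in every 3D library and above it in every 2D library. As a share of the summed TPM of the 3 ligands, TGFB1 made up 95.8% ± 0.819 in 3D and 72.1% ± 12.2 in 2D (SD, n = 3 each). TGFB2 made up 0.715% ± 0.337 in 3D and 23.1% ± 10.8 in 2D. Library by library, the TGFB2 share was 0.977%, 0.335% and 0.831% in 3D, against 27.1%, 31.4% and 10.9% in 2D, so 2D replicate 3 stood nearest to the 3D libraries without reaching them.

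**Figure D2:**
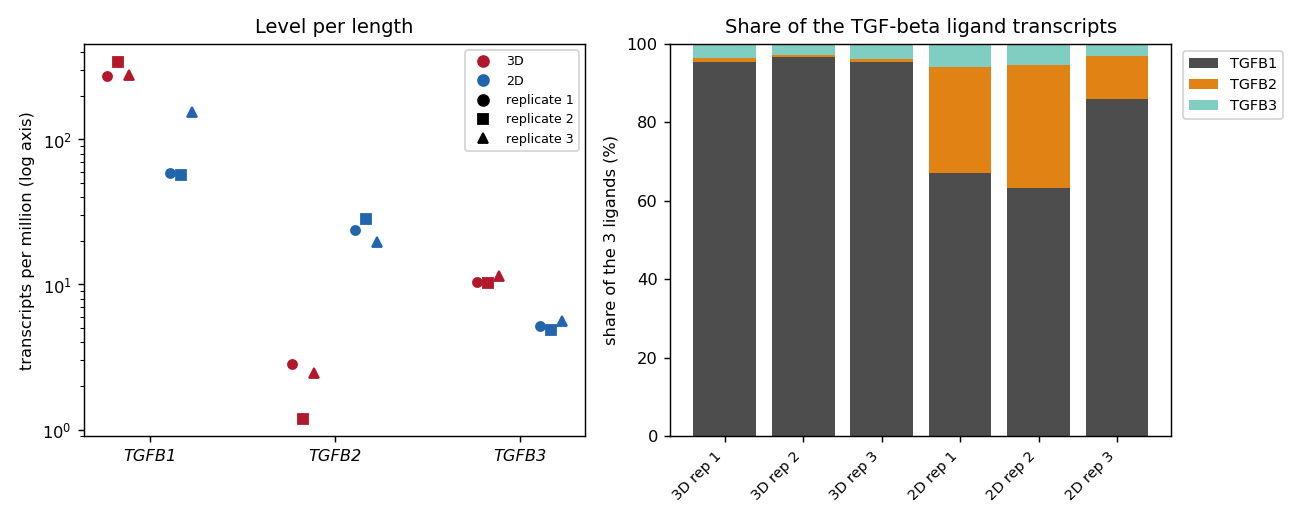
Left, TPM of TGFB1, TGFB2 and TGFB3 in each library on a log axis, 3D in red and 2D in blue, with a marker shape per replicate. Right, each ligand's share (%) of their summed TPM per library; TGFB2 takes under 1% in every 3D library and between 10.9% and 31.4% in 2D.

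Among the activin chains, INHBA and INHBB fell in 3D and INHBE did not pass the threshold. INHBA (ENSG00000122641, chr7:41667168-41705834, minus strand) encodes the chain of activin A. It had 24.1, 4.85 and 17.5 normalised counts in 3D and 154, 178 and 46.3 in 2D. The groups did not overlap, but 2D replicate 3 lay nearer to the 3D libraries than to the other 2D libraries (log2 change -2.97, SE 0.68, limma adjusted p = 0.017). Its adjusted p was 0.055 when 3D replicate 3 was omitted, 0.068 when 2D replicate 1 was, and 0.063 when 2D replicate 2 was. The log2 change was -2.34 without 3D replicate 2 and -3.58 without 2D replicate 3. INHBB (ENSG00000163083, chr2:120346143-120351808, plus strand), the chain of activin B, had 25.1, 17.4 and 13.4 normalised counts in 3D and 191, 133 and 192 in 2D. Here 2D replicate 3 was as high as 2D replicate 1 (log2 change -3.16, SE 0.34, limma adjusted p = 0.00096), and the call held whichever library was left out. INHBE (ENSG00000139269), the chain of activin E, which is known from liver and from the response to unfolded proteins, had 242, 292 and 299 normalised counts in 3D and 8053, 6976 and 86.4 in 2D. The 2D libraries disagreed: replicates 1 and 2 were far above all 3D libraries and replicate 3 was below them. The log2 change was -2.61 (SE 1.47, limma adjusted p = 0.21) with all libraries and -4.76 (adjusted p = 6.9e-06) without 2D replicate 3. On the recovered reads edgeR gave -4.16 (adjusted p = 0.036) and DESeq2 -4.15 (adjusted p = 0.0095).

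Of the 13 BMP and GDF ligands, 9 were tested and 2 passed the threshold, both lower in 3D. BMP2 (ENSG00000125845, chr20:6767664-6780280, plus strand), a bone and neural crest morphogen, had 139, 30.1 and 96 normalised counts in 3D and 681, 657 and 319 in 2D. Each culture had 1 low library, 3D replicate 2 and 2D replicate 3, and the groups stayed apart (log2 change -2.80, SE 0.55, limma adjusted p = 0.0098). Without 3D replicate 2 the log2 change of BMP2 was -2.17. GDF15 (ENSG00000130513, chr19:18374731-18389176, plus strand), a distant family member induced by cell stress that signals through GFRAL and not through SMAD-linked receptors of this family, had 279, 577 and 408 normalised counts in 3D and 7466, 6187 and 983 in 2D. Again 2D replicate 3 stood nearest to the 3D libraries, though above all of them (log2 change -3.14, SE 0.68, limma adjusted p = 0.015). Omitting a single library ended the call in 4 cases, with an adjusted p of 0.059 for 3D replicate 1, 0.06 for 3D replicate 3 and 0.051 for each of 2D replicates 1 and 2. Without 2D replicate 3 the log2 change was -4.07.

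GDF11, a ligand of the activin type that patterns the body axis, had 1841, 2133 and 2009 normalised counts in 3D and 677, 705 and 1770.3 in 2D, with 2D replicate 3 just under the 3D libraries. Its log2 change of 1.07 missed the threshold (SE 0.34, limma adjusted p = 0.052) and was 1.53 (adjusted p = 0.00011) without 2D replicate 3. BMP6, known for iron control in liver, had 1686, 2236 and 1667 normalised counts in 3D and 1399, 1183 and 1286 in 2D, without overlap (log2 change 0.52, SE 0.18, limma adjusted p = 0.065). The adjusted p of BMP6 was 0.041 without 2D replicate 3, 0.03 with equal library totals and 0.029 in DESeq2, and that of GDF11 was 0.039 with equal library totals and 0.038 in DESeq2. The log2 changes of the remaining tested ligands were 0.59 for GDF9, 0.20 for BMP4, -0.05 for BMP8A, -0.41 for BMP5 and -0.49 for BMP8B, with adjusted p between 0.12 and 0.95. BMP8A shares 29.2% of its 75-base windows with its near copy BMP8B, so the split between them is uncertain. Of the untested ligands, GDF3 had 4 reads over the 3D libraries and 0 over the 2D libraries, GDF5 had 11 in 3D and 3 in 2D, GDF7 had 1 in 3D and 4 in 2D, and GDF10 had 0 in 3D and 3 in 2D. Per length, BMP6 was the most abundant of these ligands in 3D at a mean of 128 TPM, followed by GDF11 at 44 TPM and GDF15 at 38.5 TPM, which overlapped across libraries. In 2D, GDF15 at a mean of 473 TPM and BMP6 at 93.8 TPM overlapped, since GDF15 ranged between 95 and 691 TPM, and BMP2 followed at 31.1 TPM.

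The secreted antagonists went opposite ways. NOG (ENSG00000183691, chr17:56593699-56595590, plus strand) encodes noggin, which binds BMP2 and BMP4 and keeps them from their receptors. It had 284, 415 and 224 normalised counts in 3D and 81, 43.8 and 22.6 in 2D. All 3D libraries were above all 2D libraries (log2 change 2.75, SE 0.46, limma adjusted p = 0.0054), whichever library was left out. FST (ENSG00000134363, chr5:53480409-53487134, plus strand) encodes follistatin, which binds activins. It had 15.8, 29.1 and 19.6 normalised counts in 3D and 185, 141 and 38 in 2D, with 2D replicate 3 close to the highest 3D library (log2 change -2.21, SE 0.58, limma adjusted p = 0.028). The call ended on omitting any of 4 libraries, with an adjusted p of 0.097 for each of 3D replicates 1 and 3, 0.11 for 2D replicate 1 and 0.096 for 2D replicate 2. With 2D replicate 3 omitted the log2 change of FST was -2.90.

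One of the 10 receptors passed the threshold. TGFBR3 (ENSG00000069702, chr1:91680343-91906335, minus strand), called betaglycan, is a co-receptor without kinase activity that presents TGF-beta ligands, TGFB2 above all, and binds inhibin. It had 534, 389 and 623 normalised counts in 3D and 2244, 2376 and 2042 in 2D. The groups were far apart and neither culture had a library out of place (log2 change -2.13, SE 0.21, limma adjusted p = 0.00064). Per length it was among the most abundant receptor transcripts in 2D, at a mean of 51.8 TPM beside TGFBR1 at 59.3 TPM and ACVR1B at 45.3 TPM, whose libraries overlapped. In 3D it averaged 11.3 TPM and ranked below ACVR1B (36.6 TPM), TGFBR1 (32 TPM), TGFBR2 (22.8 TPM), BMPR2 (15 TPM), BMPR1A (14.6 TPM) and ACVR1 (13 TPM), overlapping ACVR1, its neighbour in that order. The signalling receptors gave smaller changes, with adjusted p between 0.097 and 0.98. The type I TGF-beta receptor TGFBR1 had 974, 1622 and 831 normalised counts in 3D and 1477, 1471 and 3064 in 2D, with overlapping groups (log2 change -0.78, SE 0.34, limma adjusted p = 0.12). Its log2 change was -0.43 (adjusted p = 0.21) without 2D replicate 3 and -1.06 (adjusted p = 0.07) without 3D replicate 2. The type II TGF-beta receptor TGFBR2 had a log2 change of -0.30. Among activin receptors the log2 changes were -0.23 for ACVR1B, -0.60 for ACVR2A and 0.21 for ACVR2B, and among BMP receptors 0.01 for ACVR1, -0.43 for BMPR1A, -0.57 for BMPR2 and 0.80 for ACVRL1, an endothelial receptor. Without 2D replicate 3, ACVR2A (-0.78, adjusted p = 0.036) and BMPR2 (-0.67, adjusted p = 0.038) were lower and ACVRL1 (1.12, adjusted p = 0.032) was higher, and BMPR2 was also lower without 3D replicate 2 (-0.78, adjusted p = 0.034).

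Of the 6 SMAD transducers, 4 passed the threshold, all lower in 3D. SMAD3 (ENSG00000166949, chr15:67063763-67195195, plus strand), the DNA-binding effector of TGF-beta and activin, had 396, 283 and 275 normalised counts in 3D and 1038, 1247 and 1269.7 in 2D. SMAD9 (ENSG00000120693, chr13:36844831-36920765, minus strand), the least active BMP effector, had 66.8, 25.2 and 53.7 normalised counts in 3D and 172, 241 and 175 in 2D. For both genes every 3D library lay under every 2D library, with a log2 change of -1.91 for SMAD3 (SE 0.21, limma adjusted p = 0.00091) and -2.08 for SMAD9 (SE 0.39, limma adjusted p = 0.0082), whichever library was left out. SMAD2 (ENSG00000175387, chr18:47808957-47931146, minus strand), the partner of SMAD3, had 2369, 1619 and 2387 normalised counts in 3D and 3349, 3658 and 3248 in 2D. SMAD4 (ENSG00000141646, chr18:51028394-51085045, plus strand), the common partner of both branches, had 1057, 989 and 1030.2 normalised counts in 3D and 1634, 1630.1 and 1431 in 2D. These changes were smaller and less firm. SMAD2 (log2 change -0.71, SE 0.19, limma adjusted p = 0.032) kept its call only without 2D replicate 3, and its adjusted p was 0.074, 0.063 and 0.075 on omitting 3D replicates 1, 2 and 3, and 0.096 and 0.1 on omitting 2D replicates 1 and 2. SMAD4 (log2 change -0.61, SE 0.15, limma adjusted p = 0.025) had an adjusted p of 0.09 when 3D replicate 1 was omitted, 0.092 for 3D replicate 3, 0.1 for 2D replicate 1 and 0.089 for 2D replicate 2. With equal library totals the adjusted p was 0.066 for SMAD2 and 0.053 for SMAD4. The BMP effectors SMAD1 (log2 change -0.70, adjusted p = 0.11) and SMAD5 (-0.13, adjusted p = 0.66) did not pass, and SMAD1 passed without 2D replicate 3 (-1.0, adjusted p = 0.0048).

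The relative amounts within each SMAD branch differed as well, per length. SMAD3 made up 37.5% ± 5.28 of the summed TPM of SMAD2 and SMAD3 in 3D and 58% ± 2.84 in 2D (SD, n = 3 each). The shares ran between 31.5% and 41.1% in 3D and between 55.3% and 60.9% in 2D. On this scale SMAD2 was the larger of the pair in every 3D library and SMAD3 in every 2D library. That order depends on the summed exon lengths used, 36366 bases for SMAD2 and 9113 for SMAD3. In normalised counts, not divided by length, SMAD2 was the larger in every library. SMAD9 made up 4.82% ± 2 of SMAD1, SMAD5 and SMAD9 in 3D and 14.8% ± 2.33 in 2D, and SMAD5 made up 80.5% ± 0.792 in 3D and 66.9% ± 0.407 in 2D. SMAD5 was thus the main BMP effector transcript in both cultures.

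**Figure D3:**
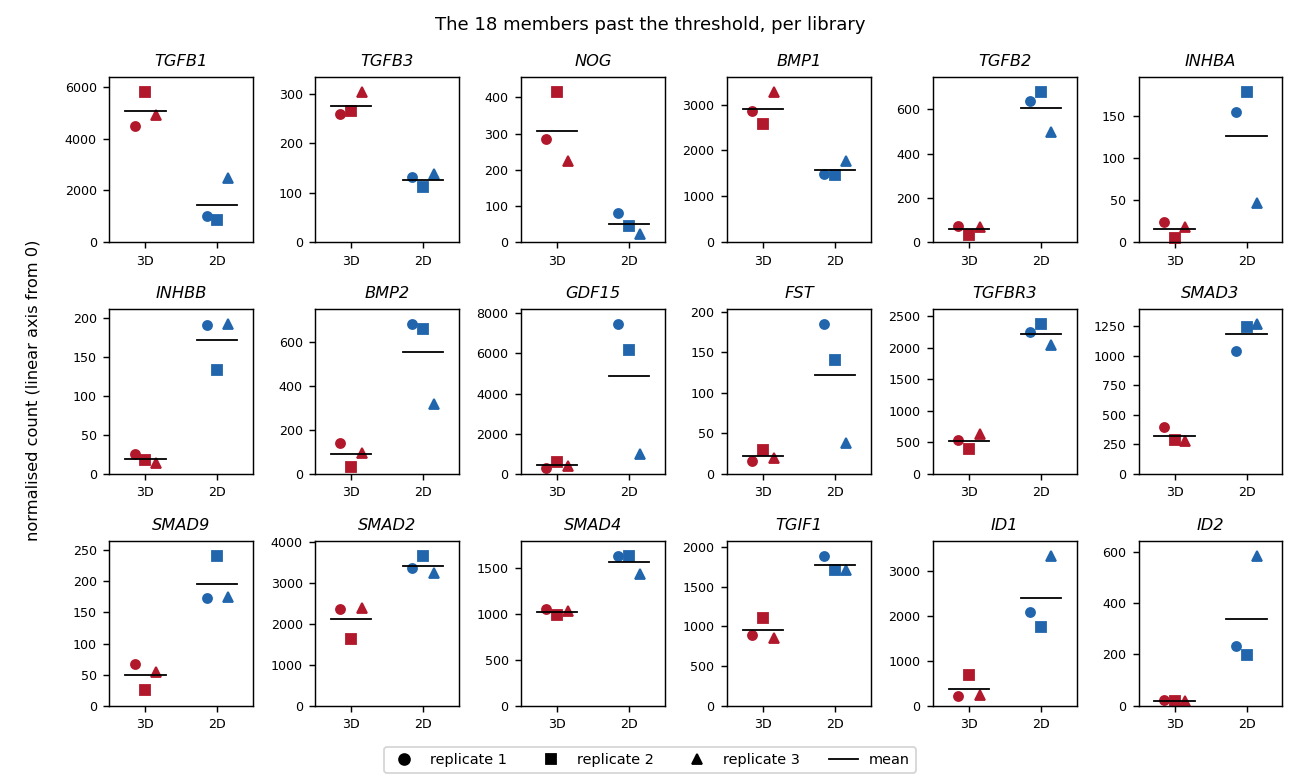
Normalised counts per library (linear axes from 0) of the 18 genes past the threshold, 3D in red left of 2D in blue, a marker shape per replicate and a line at each mean. TGFB1, TGFB3, NOG and BMP1 are higher in 3D; for GDF15, INHBA and FST, 2D replicate 3 lies near the 3D libraries.

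Of the 7 feedback inhibitors and corepressors, TGIF1 passed the threshold. TGIF1 (ENSG00000177426, chr18:3411608-3459978, plus strand) encodes a nuclear corepressor of SMAD complexes. It had 893, 1105 and 857 normalised counts in 3D and 1894, 1719 and 1720 in 2D, with no overlap (log2 change -0.91, SE 0.17, limma adjusted p = 0.0081), whichever library was left out. SKI, a related corepressor, had a log2 change of -0.46 (limma adjusted p = 0.081), and -0.50 (adjusted p = 0.035) without 2D replicate 3.

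Several induced inhibitors did not pass the threshold, and 3D replicate 2 stood apart in them. SKIL, a corepressor (SnoN) that SMAD signalling first degrades and then induces, had 407, 1564 and 302 normalised counts in 3D and 1565, 1769 and 1159.7 in 2D. SMAD7, which blocks type I receptors, had 181, 578 and 186 normalised counts in 3D and 423, 454 and 551 in 2D. PMEPA1, which sequesters SMAD2 and SMAD3, had 1085, 4148 and 1148 normalised counts in 3D and 801, 859 and 1012 in 2D. In each, 3D replicate 2 stood at several times the other 3D libraries, and it lay within the 2D range for SKIL and above it for SMAD7. For PMEPA1 every 3D library lay above every 2D library. BAMBI, a decoy receptor without a kinase, had 156, 561 and 186 normalised counts in 3D and 247, 173 and 374 in 2D, again with 3D replicate 2 highest. With all libraries the log2 changes were -1.35 for SKIL (SE 0.53, limma adjusted p = 0.094), -0.81 for SMAD7 (adjusted p = 0.18), 0.96 for PMEPA1 (adjusted p = 0.15) and 0.01 for BAMBI (adjusted p = 0.99). Without 3D replicate 2, SKIL was lower in 3D (log2 change -2.07, adjusted p = 0.0049), as was SMAD7 (-1.36, adjusted p = 0.01), whereas PMEPA1 gave 0.33 (adjusted p = 0.22) and BAMBI -0.56 (adjusted p = 0.27). With all libraries DESeq2 gave PMEPA1 1.28 (adjusted p = 0.025). SMAD6, the inhibitor of the BMP branch, had 598, 1220.5 and 696 normalised counts in 3D and 697, 681 and 2580.5 in 2D, so here 2D replicate 3 was the library apart (log2 change -0.42, adjusted p = 0.56, and 0.21, adjusted p = 0.57, without it).

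The ID genes are classic BMP targets whose proteins block bHLH transcription factors, and both tested members fell. ID1 (ENSG00000125968, chr20:31605283-31606515, plus strand) had 209, 675 and 235 normalised counts in 3D and 2093, 1741 and 3334 in 2D. ID2 (ENSG00000115738, chr2:8678845-8684453, plus strand) had 22.3, 18.4 and 18.6 normalised counts in 3D and 232, 196 and 584 in 2D. No 3D library reached a 2D library for either gene, though 3D replicate 2 was well above the other 3D libraries for ID1. The log2 change was -2.83 for ID1 (SE 0.44, limma adjusted p = 0.0041) and -3.86 for ID2 (SE 0.42, limma adjusted p = 0.00096), and both calls held whichever library was left out.

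SKIL, SMAD7, PMEPA1, BAMBI and ID1 were the 5 of 44 tested genes (11.4%) that were at least 1 log2 unit higher in 3D replicate 2 than in both other 3D libraries, where 2.09% of all genes tested were. The ratio of 3D replicate 2 to the mean of the other 3D libraries was 4.41 for SKIL, 3.72 for PMEPA1, 3.28 for BAMBI, 3.15 for SMAD7 and 3.04 for ID1. At least 1 log2 unit lower in 3D replicate 2 were BMP2, INHBA, SMAD9 and TGFB2 (4 genes, 9.09%, against 4.80% of all genes). In 2D replicate 3, GDF11, ID2, SMAD6, TGFB1 and TGFBR1 were higher by as much than in both other 2D libraries (11.4%, against 7.73% of all genes), and BMP2, FST, GDF15, INHBA and INHBE were lower (11.4%, against 7.05% of all genes). These genes were picked by these values, which are given as a description. The promoter windows of the 5 genes high in 3D replicate 2 are shown because those transcripts moved together, in the same build and with the same capitals as above.
SKIL (chr3:170357465-170357764, plus strand): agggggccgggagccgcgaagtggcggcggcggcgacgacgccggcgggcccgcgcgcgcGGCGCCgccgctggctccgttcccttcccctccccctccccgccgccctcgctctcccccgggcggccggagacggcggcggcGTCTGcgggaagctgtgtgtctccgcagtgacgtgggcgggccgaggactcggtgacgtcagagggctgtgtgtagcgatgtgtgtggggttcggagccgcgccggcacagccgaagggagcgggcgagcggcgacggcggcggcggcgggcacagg
SMAD7 (chr18:48950916-48951215, minus strand): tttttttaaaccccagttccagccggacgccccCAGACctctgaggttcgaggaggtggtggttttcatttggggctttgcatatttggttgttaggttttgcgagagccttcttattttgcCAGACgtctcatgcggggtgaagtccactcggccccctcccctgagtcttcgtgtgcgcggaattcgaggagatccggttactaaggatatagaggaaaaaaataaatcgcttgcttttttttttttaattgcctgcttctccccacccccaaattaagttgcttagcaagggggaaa
PMEPA1 (chr20:57711423-57711722, minus strand): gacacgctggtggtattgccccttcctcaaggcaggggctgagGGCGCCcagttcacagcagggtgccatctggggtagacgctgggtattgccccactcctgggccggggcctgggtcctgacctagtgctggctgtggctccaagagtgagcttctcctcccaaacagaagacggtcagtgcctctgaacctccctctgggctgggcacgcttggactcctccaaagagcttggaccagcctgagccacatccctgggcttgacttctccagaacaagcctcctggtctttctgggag
BAMBI (chr10:28677271-28677570, plus strand): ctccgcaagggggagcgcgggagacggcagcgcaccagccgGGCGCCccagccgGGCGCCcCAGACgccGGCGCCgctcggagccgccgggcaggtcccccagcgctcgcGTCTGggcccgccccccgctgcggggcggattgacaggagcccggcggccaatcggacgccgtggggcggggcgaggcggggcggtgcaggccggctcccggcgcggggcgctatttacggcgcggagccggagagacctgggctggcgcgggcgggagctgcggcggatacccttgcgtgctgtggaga
ID1 (chr20:31605039-31605338, plus strand): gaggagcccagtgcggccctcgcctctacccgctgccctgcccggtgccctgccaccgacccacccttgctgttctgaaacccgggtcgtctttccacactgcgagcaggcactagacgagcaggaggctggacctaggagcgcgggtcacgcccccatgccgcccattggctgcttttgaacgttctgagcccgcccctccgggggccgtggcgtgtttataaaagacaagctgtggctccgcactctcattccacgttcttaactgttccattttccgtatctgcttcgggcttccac
The SMAD7 window held 2 CAGAC matches, the SKIL window 1 CAGAC and 1 GGCGCC, the BAMBI window 2 CAGAC and 3 GGCGCC, and the PMEPA1 window 1 GGCGCC. The ID1 window held neither sequence, so no searched sequence was common to the 5 windows.

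**Figure D4:**
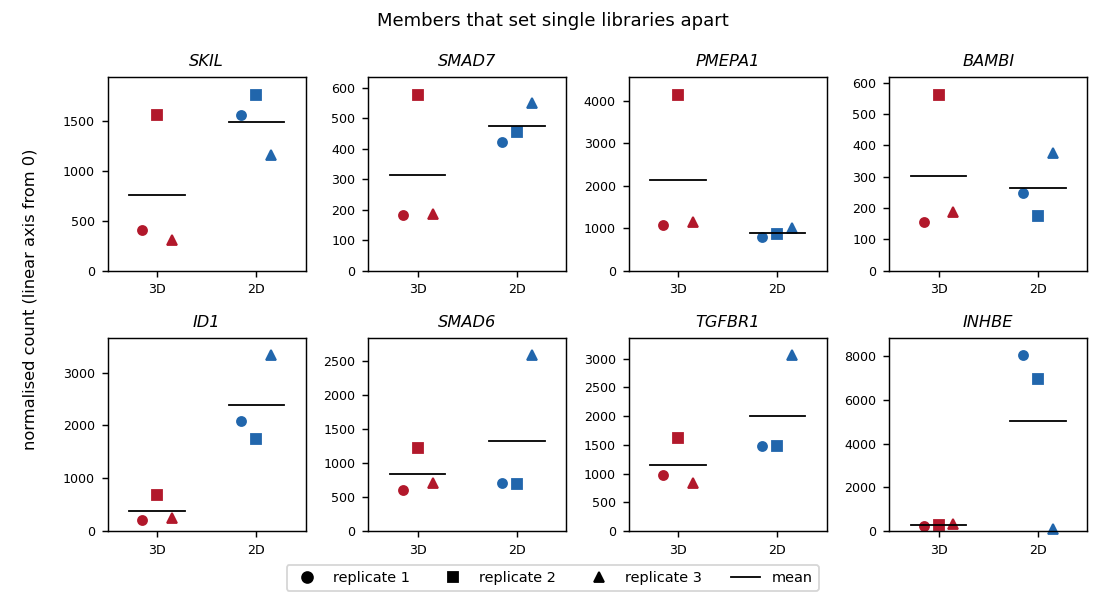
Normalised counts per library (linear axes from 0) of 8 genes in which a single library stood apart, 3D in red left of 2D in blue, with a line at each mean. 3D replicate 2 (square) is the highest 3D library for SKIL, SMAD7, PMEPA1, BAMBI and ID1, and 2D replicate 3 (triangle) is the highest 2D library for SMAD6 and TGFBR1 and the lowest for INHBE.

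The last pair of genes carries a BMP symbol but encodes no ligand. BMP1 (ENSG00000168487) encodes a metalloprotease that cleaves procollagens and the BMP antagonist chordin. It had 2863, 2576 and 3275 normalised counts in 3D and 1482, 1456 and 1776 in 2D, without overlap (log2 change 0.88, SE 0.17, limma adjusted p = 0.0095), and an adjusted p of 0.055 without 3D replicate 3. BMP2K, a kinase of the endocytic machinery, had a log2 change of -0.07 (adjusted p = 0.89), and 56.8% of its exon bases lie under PAQR3, so its counts are uncertain.

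Other genes of the pathway were taken from lists chosen by role. Latent TGF-beta is stored on LTBP proteins and fibrillins and released by integrins, proteases and THBS1. For all lists below, the shares of all genes tested were 12.5% higher and 11.6% lower with all libraries. Counts with a library omitted have another background. On omitting 3D replicates 1, 2 and 3, of all 15598 genes 609, 1576 and 534 were higher and 698, 1409 and 656 lower. On omitting 2D replicates 1, 2 and 3, 830, 1025 and 3526 were higher and 719, 768 and 3585 lower. Of 11 tested genes of the latency list 1 rose and 4 fell, and 2 rose without 3D replicate 2 and 3 without 2D replicate 3. LTBP2 had 592, 1186 and 678 normalised counts in 3D and 68.6, 124 and 297 in 2D (log2 change 2.51, SE 0.50, limma adjusted p = 0.01). FBN2 had 110.4, 76.6 and 99.1 in 3D and 1554, 2144 and 595 in 2D (log2 change -3.72, SE 0.43, limma adjusted p = 0.0012). LTBP1, FBN1 and THBS1 were also lower, with log2 changes of -1.60 for LTBP1, -1.29 for FBN1 and -1.80 for THBS1, the last with an adjusted p up to 0.12 on omitting replicate 1 or 3 of 3D or replicate 1 or 2 of 2D, and a log2 change of -2.40 without 3D replicate 2. Of 10 other secreted antagonists and proteases, 3 rose and 1 fell (between 2 and 3 rose and 1 fell with single libraries left out). TLL1, a protease of the BMP1 type, had 109, 93.1 and 83.6 normalised counts in 3D and 7.62, 11.7 and 29.8 in 2D (log2 change 2.67, SE 0.49, limma adjusted p = 0.0078). CHRD, the BMP antagonist chordin, had 1216, 822 and 1453 in 3D and 465, 488 and 448 in 2D (log2 change 1.28, SE 0.23, limma adjusted p = 0.007). DAND5, a secreted antagonist of the DAN family, was higher (log2 change 1.74, adjusted p = 0.028, up to 0.13 on the same omissions), and FSTL1, a follistatin-like glycoprotein, was lower (log2 change -1.57, adjusted p = 0.00063). The 6 other tested ligands and receptors had adjusted p between 0.1 and 0.61 in limma with all libraries. Without 2D replicate 3, 1 was higher and 2 were lower. Without 3D replicate 2, 1 was higher, RGMA (log2 change 1.19, limma adjusted p = 0.027). Of 18 intracellular SMAD regulators, 6 passed the threshold, all lower in 3D, with a median log2 change of -0.41 over the 18. The count was 4 with equal library totals. On omitting 3D replicates 1, 2 and 3 it was 3, 4 and 2, and on omitting 2D replicates 1, 2 and 3 it was 4, 3 and 9. The SMAD-binding repressor ZEB2 had 65, 41.7 and 70.2 normalised counts in 3D and 351, 379 and 194 in 2D (log2 change -2.34, SE 0.34, limma adjusted p = 0.0033). ZFYVE9, the SMAD anchor SARA, had 277, 312 and 293 in 3D and 1159, 1183 and 685 in 2D (log2 change -1.73, SE 0.24, limma adjusted p = 0.0027). CREBBP, a coactivator, was lower (log2 change -1.43, adjusted p = 0.012, up to 0.057 on omitting 3D replicate 1 or 3), and NEDD4L, a ubiquitin ligase for activated SMAD2 and SMAD3, likewise (log2 change -0.88, adjusted p = 0.011, up to 0.051 on omitting 3D replicate 3 or 2D replicate 2).

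Transcripts that TGF-beta is known to raise in many cell types did not move one way. Of 21 tested, 7 rose and 2 fell, and the median log2 change was 0.61. FN1, the matrix protein fibronectin, had 6326, 12070 and 5464 normalised counts in 3D and 451, 599 and 1037 in 2D (log2 change 3.51, SE 0.37, limma adjusted p = 0.00083). COL4A1, a basement membrane collagen, had 1984, 2644 and 2012 in 3D and 392, 465 and 1411 in 2D (log2 change 1.78, SE 0.43, limma adjusted p = 0.021), and its adjusted p reached 0.072 and missed the threshold in each omission except that of 2D replicate 3. TIMP1, a protease inhibitor, was higher (log2 change 1.31, adjusted p = 0.016, up to 0.077 on omitting replicate 1 or 3 of 3D or replicate 1 or 2 of 2D). CCN2, a matricellular protein, had 20.4, 158 and 42.3 normalised counts in 3D and 274, 328 and 3321 in 2D, with 2D replicate 3 far above every other library (log2 change -3.66, SE 1.00, limma adjusted p = 0.032), and the adjusted p was up to 0.11 on omitting 3D replicate 1 or 3. Without 2D replicate 3 the log2 change of CCN2 was -2.51 (adjusted p = 0.018), and without 3D replicate 2 it was -4.46 (adjusted p = 0.031). LTBP2 and THBS1, given above, are also in this list. On omitting 3D replicates 1, 2 and 3 the count higher in this list was 3, 6 and 2 and the count lower 0, 3 and 0. On omitting 2D replicates 1, 2 and 3 the count higher was 3, 3 and 9 and the count lower 1, 1 and 4.

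Transcripts that BMP is known to raise were also mixed. Of 9 tested, 2 rose and 3 fell, with a median log2 change of -0.76. Leaving out 3D replicate 1, 2D replicate 1 or 2D replicate 2 left 1 higher, leaving out 3D replicate 1 or 3 left 2 lower, and leaving out 2D replicate 3 gave 3 higher. HEY1, a Notch and BMP target, had 569.7, 358 and 482 normalised counts in 3D and 67.7, 73.7 and 91.5 in 2D (log2 change 2.57, SE 0.26, limma adjusted p = 0.00072). ATOH8 had 8.35, 15.5 and 18.6 in 3D and 126, 69.4 and 216 in 2D (log2 change -3.11, SE 0.49, limma adjusted p = 0.0045), and MSX1, a homeobox gene, had 318, 294 and 316 in 3D and 789, 707 and 617 in 2D (log2 change -1.18, SE 0.18, limma adjusted p = 0.0041). DLX2 was higher (log2 change 1.35, adjusted p = 0.016, up to 0.063 on omitting 3D replicate 1 or either of 2D replicates 1 and 2), and HES1, better known as a Notch target, was lower (log2 change -1.79, adjusted p = 0.022, up to 0.092 on omitting 3D replicate 1 or 3). Among the genes of these lists for BMP and TGF-beta, HES1, RUNX2, CCN2, CDKN1A, CDKN2B, IGFBP7 and THBS1 were at least 1 log2 unit higher in 3D replicate 2 than in both other 3D libraries.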

How the data were processed

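RNA of 3 libraries from 3D and 3 from 2D M14 cultures was prepared with the TruSeq RNA v2 kit, which does not mark strand, so overlapping antisense genes cannot be told apart. The submitters' processing notes name HISAT2, featureCounts 1.5.0, DESeq2 and GRCh38. For HISAT2 and DESeq2 no version, and for the counting no annotation, is given in the sources used here. Per gene the deposited table holds a signal: the authors' counts divided by a factor per library, called normalised counts here. In each library 100% of the values were whole multiples of the value of 1 read, within a tolerance of 0.01 read, so whole reads were recovered.

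Values were tested as log2(value + 1) with limma 3.58.1 in R 4.3.3 (trended variances, Benjamini-Hochberg over 15598 genes with a mean of at least 10). Folds on this scale understate the change of low genes. On the recovered reads edgeR 4.0.16 called 3657 genes and DESeq2 1.42.0 called 4724. Further alternatives were other pseudocounts, filters and scalings, a replicate block and each library left out. TPM used summed exon lengths of GENCODE 29, the source of symbols and GRCh38 coordinates. Windows of 75 exon bases were compared between genes to find shared sequence. No replicate pair agreed within sampling noise (mean chi-square per gene at least 9.65).

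The members and lists were chosen with earlier results of these data known. All members past the threshold were named with each library's value, the others by log2 change, and up to 4 genes per list and direction.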

Additional observations from a re-analysis of the deposited data

How the results depend on the processing

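With 3 libraries per culture and 1 library apart in each, single libraries decided many calls. Leaving out 1 library gave between 1190 and 7111 called genes (3766 with all), between 2 and 7 members higher in 3D (4 with all) and between 9 and 19 members lower (14 with all). Without both 3D replicate 2 and 2D replicate 3, chosen after seeing the data, 9041 genes were called, 8 members higher and 25 lower. DESeq2 gave 7 members higher. The cause was not tested for any of these. The other settings kept these counts within 1.5 times. The labels do not tell whether the replicate numbers pair the samples. Same-numbered libraries had correlations of deviations from the culture mean of -0.08, -0.14 and 0.04. With 3 libraries per culture and 1 apart in each, these values cannot decide it. With the replicate block limma called 3222 genes, 5 members higher and 13 lower. GDF11 and SKIL (adjusted p = 0.027) were gained and SMAD2 (0.059) and SMAD4 (0.063) were lost. In no setting did a called member change direction. The signs that reversed belong to members under the threshold. ACVR1 gave -0.0008 with TMM scaling, between -0.20 and 0.17 with single libraries left out and -0.33 with both out. BAMBI gave -0.0010 with TMM, between -0.56 and 0.36 with single libraries left out and -0.28 with both out. BMP2K gave 0.066 with equal totals, between -0.31 and 0.19 with single libraries left out and 0.20 with both out. BMP8A gave 0.070, between -0.37 and 0.30, and 0.25 under the same settings. SMAD5 gave 0.0021 with equal totals and between -0.31 and 0.0150 with single libraries left out. BMP4 (-0.11 to 0.59), SMAD6 (-0.75 to 0.21) and TGFBR2 (-0.48 to 0.0093) reversed with single libraries left out, and the cause was not tested. GDF3, GDF5, GDF7 and GDF10 had too few reads to be compared.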
